A study of Mus musculus with 6 samples.

Results

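Fzd1, Fzd2, Fzd4, Fzd5, Fzd7, Fzd8, Lrp4, Lrp5, Lrp6 and Axin2 were read by gene symbol from the expression table of Ocy454 cells, 10 genes of the 39179 listed. They comprise 6 Frizzled receptors, 3 low-density lipoprotein receptor-related proteins and 1 feedback target of the Wnt pathway. All 10 symbols were found once. All 10 had at least 0.977 RPKM (reads scaled to the length of the gene and the depth of the library) in each library and were among the 14264 genes kept for testing, which had at least 0.5 RPKM in at least 2 libraries. Ocy454 is a mouse osteocytic cell line, and the study used 1 subclone grown from a single cell. The cells were grown to confluency at 33 °C, held at 37 °C for 14 days, given new medium 24 h before collection, and then treated for 4 h. The PTH group received the parathyroid hormone peptide at 1 nM, and the third group YKL-05-093, a small-molecule inhibitor of salt-inducible kinases, at 0.5 µM. The labels give PBS with 25 mM HCl as the vehicle, whereas the study's methods name DMSO for compound stocks used on cells, so which solvent the cells received is not settled. Each group has 2 libraries of RNA depleted of ribosomal RNA, and the comparisons ask which of these genes either agent moves, and whether PTH and the inhibitor differ.

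Frizzled proteins are the seven-pass membrane receptors that bind Wnt ligands through a cysteine-rich outer domain. LRP5 and LRP6 are single-pass co-receptors which, once engaged with a Frizzled, draw axin to the membrane, so that β-catenin is no longer marked for degradation and enters the nucleus with TCF/LEF factors. LRP4 is a relative of these co-receptors that binds sclerostin and anchors its inhibition of Wnt signalling in bone. AXIN2 is part of the β-catenin destruction complex, and its gene is a widely used transcriptional target of the pathway. In osteocytes the pathway is restrained by sclerostin, the product of Sost, which binds LRP5, LRP6 and LRP4, and gain or loss of LRP5 function raises or lowers bone mass in humans.

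The members lie on different chromosomes of GRCm38, apart from a pair on chromosome 1 and a pair on chromosome 11. Fzd1 (ENSMUSG00000044674) is at chr5:4753839-4758035 on the minus strand, Fzd5 (ENSMUSG00000045005) at chr1:64730558-64737751 on the minus strand and Fzd7 (ENSMUSG00000041075) at chr1:59482424-59486955 on the plus strand. Lrp6 (ENSMUSG00000030201) is at chr6:134446476-134566965 on the minus strand and Axin2 (ENSMUSG00000000142) at chr11:108920349-108950783 on the plus strand. The coding sequence of Fzd1, Fzd2, Fzd5, Fzd7 and Fzd8 lies in 1 exon, and that of Fzd4 in 2. The co-receptor genes have long spliced coding sequences, with 38 coding exons in Lrp4 and 23 each in Lrp5 and Lrp6. No exon of another gene overlapped those of 8 members in the GENCODE annotation, whereas Fzd5 and Axin2 each overlap an exon of a transcript on the opposite strand (Gm38058 and Gm11670). The libraries were made with a directional kit, and whether the counting used the strand is not stated, so reads of these partners cannot be told apart from those of Fzd5 and Axin2.

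RefSeq promoters, taken as the 250 bases before the annotated start in GRCm38.p6, were at hand for 5 of the 10 members. Those of Fzd1 and Fzd5 are printed because these genes moved most in opposite directions after PTH, and that of Axin2 because its transcription is read as Wnt output. Capitals mark GC boxes (GGGCGG or its reverse complement CCGCCC) in Fzd5 and Axin2, and the TATA motif (TATAAA) in Fzd1. The Fzd1 sequence is chr5:4758217-4758466 on the minus strand, upstream of the start in GENCODE. The Fzd5 sequence is chr1:64737751-64738000 on the minus strand, and the Axin2 sequence is chr11:108920099-108920348 on the plus strand.
Fzd1: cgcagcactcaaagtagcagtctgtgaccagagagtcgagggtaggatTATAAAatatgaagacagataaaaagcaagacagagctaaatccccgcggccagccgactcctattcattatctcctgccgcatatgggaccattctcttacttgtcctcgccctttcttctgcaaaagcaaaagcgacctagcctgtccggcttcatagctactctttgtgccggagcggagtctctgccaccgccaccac
Fzd5: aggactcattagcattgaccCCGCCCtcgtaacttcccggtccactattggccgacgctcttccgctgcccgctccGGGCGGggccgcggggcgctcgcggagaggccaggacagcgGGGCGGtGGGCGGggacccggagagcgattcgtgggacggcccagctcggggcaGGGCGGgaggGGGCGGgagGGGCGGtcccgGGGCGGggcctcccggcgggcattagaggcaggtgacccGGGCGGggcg
Axin2: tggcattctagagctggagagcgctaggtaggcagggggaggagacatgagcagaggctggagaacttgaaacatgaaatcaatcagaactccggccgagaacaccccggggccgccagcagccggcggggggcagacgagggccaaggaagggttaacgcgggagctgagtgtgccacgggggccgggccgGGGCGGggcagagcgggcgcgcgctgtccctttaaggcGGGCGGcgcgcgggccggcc

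The Fzd5 promoter had a GC content of 76.4% and 9 GC boxes, some of them side by side. The Fzd1 promoter had a GC content of 51.2%, close to the median of 52.4% over all 32851 promoters, with no GC box and 1 TATA motif, whose first base is at position -202 from the start. The Axin2 promoter was intermediate, at 69.2% GC with 2 GC boxes. The promoters of Fzd7 (65.2% GC, 6 GC boxes) and Fzd4 (72.8%, 7 GC boxes) were of the GC-rich kind as well. A GC box was present in 32.7% of all promoters of this length and the TATA motif in 12.4%, searched on both strands. The cyclic AMP response element (TGACGTCA, in 1.55% of all promoters), its half-site (TGACG, part of the full element, 17.8%), the AP-1 motif (TGAGTCA, 4.46%) and a TCF motif (CTTTGAT, 3.21%) did not occur in these 5 windows, which says nothing of sites outside them.

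The library totals behind the deposited RPKM, worked back from its steps, were between 17505798 and 27983585 reads. Reads in genes made up 99.7% of each total. The totals are thus not the number of read pairs sequenced, for which the study reports a higher average. The members had between 69 and 5879 reads in a library, and Fzd4 had the fewest, 69 to 123. The vehicle libraries were less alike than the treated ones: over the tested genes, the median absolute log2 gap within the pair was 0.333, against 0.108 in the PTH pair and 0.103 in the inhibitor pair. Replicate 1 of vehicle was above replicate 2 for all 10 members, and the gap of Lrp6 (0.89 on the log2 scale) was larger than that of 92.3% of tested genes, that of Lrp4 (0.81) larger than 90.1% and that of Fzd5 (0.75) larger than 88.0%. The sources do not say whether replicates were separate cultures, so p-values measure the spread between these libraries. In bulk RNA, fewer cells of a kind and less RNA per cell cannot be told apart. Of 11 osteocyte and osteoblast markers, 8 were above the filter, and the summed level of the list was 469 to 578 RPKM in vehicle, 656 to 732 in PTH and 544 to 637 in YKL-05-093. The markers of the mature osteocyte were uneven. Sost was at 0 to 0.0519 RPKM, and Fgf23 and Mepe were at no more than 0.136 RPKM. Dmp1 was at 0.376 to 1.2 RPKM and Phex at 0.764 to 4.93 RPKM, while Pdpn, which marks osteocytes and other cells, was at 53.1 to 171 RPKM. Of the 8, Pdpn and Bglap rose and Sp7 fell after PTH, and none passed for YKL-05-093. Among markers of fat, cartilage, macrophages, endothelium and muscle, Col2a1 rose after PTH (log2 fold change 1.30) and Kdr after YKL-05-093 (1.42), both at under 2 RPKM. The part of these marker levels in the results was not tested. Ptprc, Emr1, Cdh5, Myod1 and Adipoq, which define blood cells, macrophages, endothelium, muscle and fat, had no more than 0.035 RPKM in any library. Other genes of these lists were present, with Ctsk at 74.1 to 94.7 RPKM, Cd68 at 3.69 to 4.42 RPKM, Fabp4 at 1.08 to 2.27 RPKM and Pparg at 0.562 to 1.83 RPKM.

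In vehicle, the most abundant member was Fzd1, with a mean of 24.8 ± 5.02 RPKM (SD, n = 2), above 81.4% of tested genes. Lrp4 followed with 21.1 ± 8.19 RPKM, Fzd2 with 19.5 ± 1.51 RPKM and Lrp6 with 13.8 ± 5.87 RPKM. Fzd1 was above the other members in each vehicle library and its range overlapped that of Lrp4, though not that of Fzd2. The range of Lrp4 also overlapped those of Fzd2 and Lrp6, so its place among these genes is not resolved, whereas Fzd2 lay above Lrp6 without overlap. Lrp5 (7.68 ± 1.38 RPKM), Fzd7 (6.56 ± 1.34 RPKM), Fzd8 (6.55 ± 0.739 RPKM) and Fzd5 (6.43 ± 2.36 RPKM) formed a middle group in which each overlapped the next. Axin2 had 4.44 ± 0.715 RPKM and overlapped Fzd5. Fzd4 was the lowest at 1.26 ± 0.0883 RPKM and overlapped no other member.

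**Figure D1:**
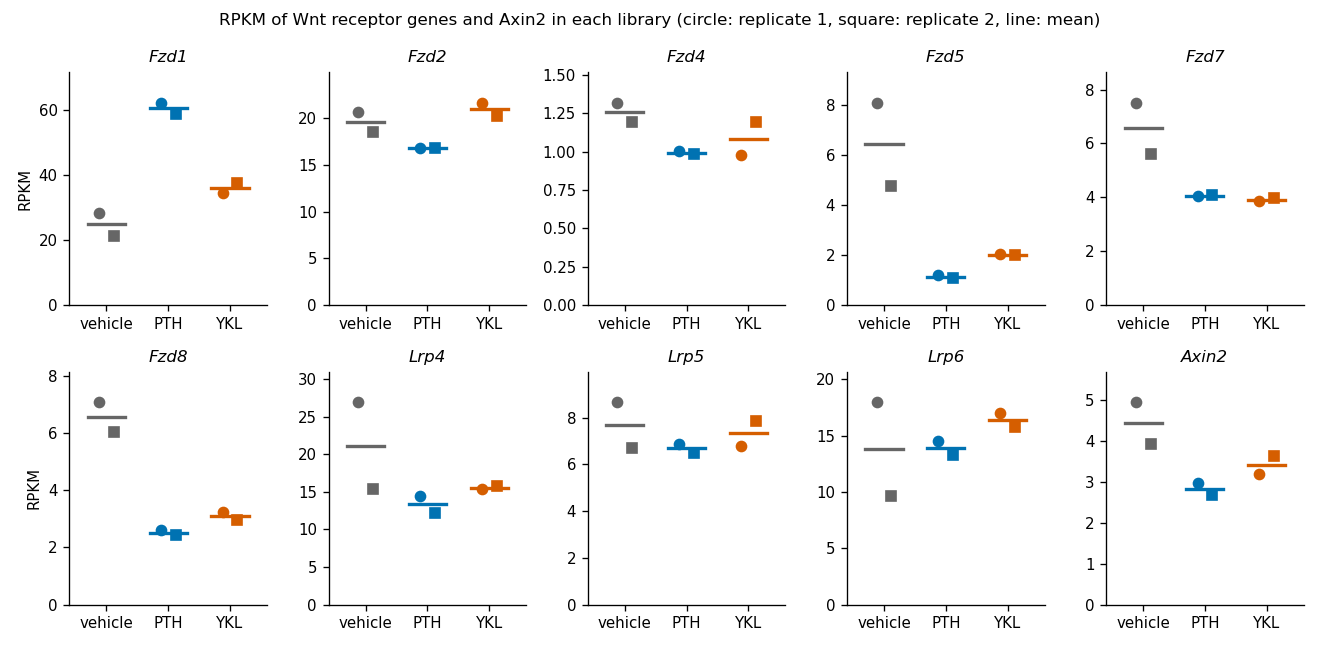
RPKM of each member (linear y axis from 0, own scale per gene) in vehicle, PTH and YKL-05-093 (YKL), with circles for replicate 1, squares for replicate 2 and lines for the mean of 2. Fzd1 is highest in both PTH libraries (62.2 and 58.9 RPKM), while Fzd5, Fzd7 and Fzd8 are lower in all 4 treated libraries than in either vehicle library.

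PTH moved the Frizzled receptors in opposite directions. Fzd1 rose 2.46-fold, whereas Fzd5 fell 5.07-fold and Fzd8 fell 2.55-fold, and these 3 of the 10 members passed the test (limma, adjusted p under 0.05), against 2.19% of all tested genes, 1.26% higher and 0.940% lower. None of the 3 co-receptor genes passed, and neither did Axin2.

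Fzd1 was at 28.4 and 21.3 RPKM in the vehicle libraries, 62.2 and 58.9 RPKM with PTH and 34.6 and 37.6 RPKM with the inhibitor. Both PTH libraries lay above all the others, and the groups did not overlap in any of the 3 comparisons. The log2 fold change for PTH was 1.30 (standard error 0.20, 95% interval 0.84 to 1.76, limma adjusted p = 0.0206).

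Fzd5 was at 8.10 and 4.76 RPKM in vehicle, 1.20 and 1.09 RPKM with PTH and 2.05 and 1.99 RPKM with the inhibitor. The vehicle libraries differed from each other 1.70-fold, and even the lower of them was well above all treated libraries. These values rest on 980 and 921 reads in vehicle and on 179 and 144 after PTH. The log2 fold change for PTH was -2.34 (standard error 0.25, 95% interval -2.93 to -1.75, limma adjusted p = 0.0054). Of the 50-base stretches in Fzd5 exons, 16.4% are also in the opposite-strand transcript Gm38058.

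Fzd8 was at 7.07 and 6.03 RPKM in vehicle, 2.59 and 2.41 RPKM with PTH and 3.23 and 2.94 RPKM with the inhibitor. The 3 groups were separate, with vehicle highest and PTH lowest. The log2 fold change for PTH was -1.35 (standard error 0.17, 95% interval -1.75 to -0.96, limma adjusted p = 0.00993). Fzd8 shares no 50-base stretch of exon with any other gene.

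Fzd7, a receptor close in sequence to Fzd1 and Fzd2, was at 7.51 and 5.61 RPKM in vehicle, 4.05 and 4.07 RPKM with PTH and 3.85 and 3.97 RPKM with the inhibitor. All 4 treated libraries lay below both vehicle libraries, but the log2 fold change of -0.66 for PTH did not pass (95% interval -1.10 to -0.22, limma adjusted p = 0.167). Fzd2 was at 20.6 and 18.5 RPKM in vehicle, 16.8 and 16.8 RPKM with PTH and 21.7 and 20.2 RPKM with the inhibitor. The PTH pair was lowest and the inhibitor pair overlapped vehicle, and the log2 fold change of -0.22 for PTH did not pass (95% interval -0.59 to 0.16, limma adjusted p = 0.667). Fzd4, the receptor for norrin as well as Wnts, was at 1.32 and 1.19 RPKM in vehicle, 1.01 and 0.982 RPKM with PTH and 0.977 and 1.19 RPKM with the inhibitor. Its log2 fold change for PTH was -0.31 (95% interval -0.76 to 0.14), at the lowest depth of the 10 genes.

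The co-receptor genes did not pass for PTH, and Lrp6 and Lrp4, which differed most between the vehicle libraries, had the widest intervals of the 10 members. Lrp6 was at 18.0 and 9.68 RPKM in vehicle, 14.5 and 13.3 RPKM with PTH and 17.0 and 15.8 RPKM with the inhibitor. All 4 treated libraries lay between the vehicle libraries. Its log2 fold change for PTH was 0.07, with a 95% interval of -0.59 to 0.74 that leaves room for a change of up to 1.67-fold upward, and its sign depends on the vehicle library: it was 0.52 without vehicle replicate 1 and -0.37 without vehicle replicate 2.

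Lrp5 was at 8.66 and 6.70 RPKM in vehicle, 6.89 and 6.47 RPKM with PTH and 6.79 and 7.86 RPKM with the inhibitor. The groups overlapped, and the log2 fold change for PTH was -0.19 (95% interval -0.62 to 0.24, limma adjusted p = 0.749). Lrp4 was at 26.9 and 15.3 RPKM in vehicle, 14.4 and 12.2 RPKM with PTH and 15.4 and 15.7 RPKM with the inhibitor. Vehicle replicate 1 stood apart from the other 5 libraries, which lay within 12.2 to 15.7 RPKM, and the log2 fold change for PTH was -0.61 (95% interval -1.25 to 0.03, limma adjusted p = 0.402).

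Axin2 was at 4.94 and 3.93 RPKM in vehicle, 2.96 and 2.67 RPKM with PTH and 3.18 and 3.63 RPKM with the inhibitor. All treated libraries were below both vehicle libraries. Neither difference passed, with a log2 fold change of -0.63 for PTH (95% interval -1.05 to -0.21, limma adjusted p = 0.168) and -0.37 for YKL-05-093 (95% interval -0.80 to 0.06, limma adjusted p = 0.667).

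Over the 10 members, the median log2 fold change for PTH was -0.46, beside -0.03 over all tested genes. Libraries did not overlap for 1 member that was higher and 7 that were lower after PTH, where 19.1% and 24.0% of all tested genes were separated in these directions. At an unadjusted p under 0.05, 5 members were below the threshold (Fzd1, Fzd5, Fzd7, Fzd8 and Axin2), beside 13.3% of tested genes. Fzd1 lost its call with the spread trended on the mean value (limma adjusted p = 0.0502), and all 3 calls were lost without the filter on low values, without a trend of the spread, and without either PTH library. Without PTH replicate 1 the limma adjusted p was 0.532 for Fzd1, 0.0855 for Fzd5 and 0.272 for Fzd8, and without PTH replicate 2 it was 0.546, 0.0935 and 0.337. In each of these fits 14 genes of the whole table passed, and the log2 fold changes stayed between 1.26 and 1.34 for Fzd1, -2.40 and -2.28 for Fzd5, and -1.40 and -1.30 for Fzd8.

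**Figure D2:**
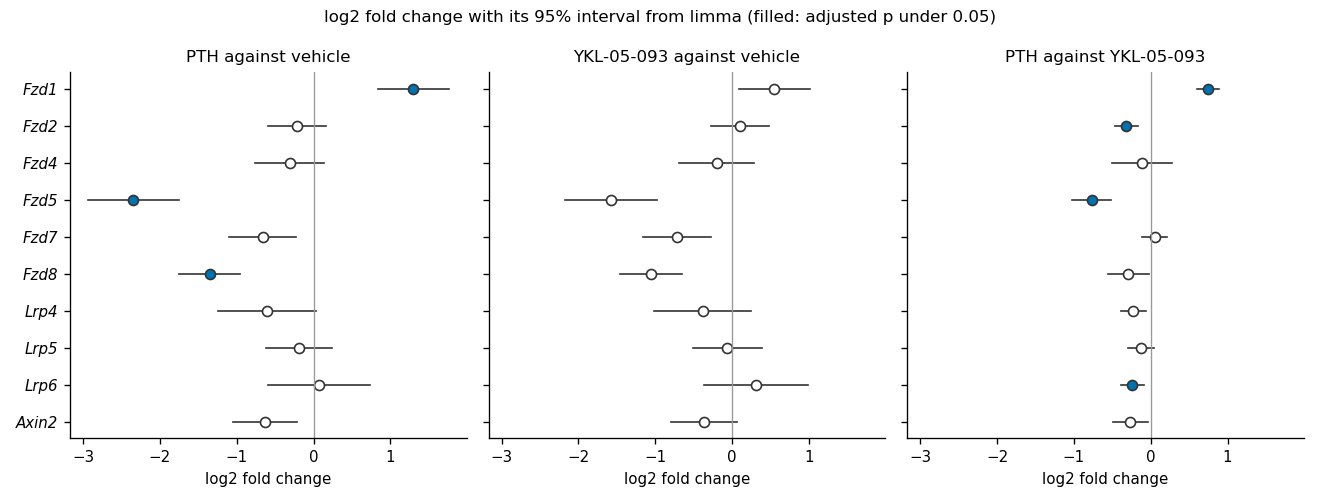
Log2 fold change (x axis) of each member with its 95% interval from limma, in 1 panel per comparison, filled where the adjusted p is under 0.05. Fzd1 (1.30), Fzd5 (-2.34) and Fzd8 (-1.35) are filled for PTH, no member is filled for YKL-05-093, and the intervals are narrowest in the direct comparison, which leaves out the vehicle libraries.

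After YKL-05-093, no member passed against vehicle, where 0.666% of tested genes did, 0.393% higher and 0.274% lower. Fzd5 and Fzd8 came closest. The log2 fold change of Fzd5 was -1.57 (standard error 0.25, 95% interval -2.17 to -0.98, limma adjusted p = 0.0583), a level 2.98-fold lower. That of Fzd8 was -1.06 (standard error 0.17, 95% interval -1.46 to -0.66, limma adjusted p = 0.0583), 2.08-fold lower. Fzd5 passed with voom on the recovered reads (limma adjusted p = 0.0484), and both genes passed in 1 fit of all 6 libraries (limma adjusted p = 0.0154 and 0.0126). With the spread trended on the mean value, the limma adjusted p was 0.155 for Fzd5 and 0.134 for Fzd8. Without a trend of the spread it was 0.271 and 0.213. Of 14 alternatives, Fzd5 passed in 4 and Fzd8 in 3. At an unadjusted p under 0.05, 4 members were below the threshold (Fzd1, Fzd5, Fzd7 and Fzd8), beside 8.67% of all tested genes.

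Fzd7 had a log2 fold change of -0.72 for YKL-05-093 (95% interval -1.16 to -0.27, limma adjusted p = 0.239), and Fzd1 one of 0.55 (95% interval 0.09 to 1.01, limma adjusted p = 0.446). The remaining Frizzled members were nearer to 0, at 0.10 for Fzd2 and -0.20 for Fzd4. Among the co-receptors the log2 fold changes were -0.38 for Lrp4, -0.06 for Lrp5 and 0.31 for Lrp6, and all 3 overlapped vehicle. The median over the members was -0.28, beside -0.04 over all tested genes. Libraries did not overlap for 1 member that was higher (Fzd1) and 5 that were lower (Fzd4, Fzd5, Fzd7, Fzd8 and Axin2), where 15.7% and 22.1% of all tested genes were separated. The comparisons of PTH and of YKL-05-093 with vehicle share the vehicle libraries, so their values are given side by side and no likeness between them is drawn.

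PTH and YKL-05-093 were then compared directly, without the vehicle libraries. Here 4 members passed, where 9.97% of all tested genes did, 4.85% higher and 5.11% lower. Fzd1 was higher after PTH, and Fzd5, Fzd2 and Lrp6 were lower. Fzd1 was 1.68-fold higher after PTH (log2 fold change 0.75, standard error 0.07, 95% interval 0.60 to 0.89, limma adjusted p = 1.84e-06). Fzd5 was 1.70-fold lower (log2 fold change -0.77, standard error 0.12, 95% interval -1.02 to -0.52, limma adjusted p = 0.00033). Thus the level of Fzd1 and that of Fzd5 after PTH both lay farther from vehicle than after the inhibitor, at the doses used.

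Fzd2 was 1.24-fold lower after PTH than after YKL-05-093 (log2 fold change -0.32, 95% interval -0.46 to -0.17, limma adjusted p = 0.0068), and Lrp6 was 1.18-fold lower (log2 fold change -0.24, 95% interval -0.39 to -0.09, limma adjusted p = 0.0424). These differences are small and lie between pairs of libraries that agree within 0.13 on the log2 scale. The call of Fzd2 held in 6 of 14 alternatives and that of Lrp6 in 4. Fzd8 differed by -0.29 and did not pass (95% interval -0.56 to -0.02, limma adjusted p = 0.178). Fzd7 had a log2 fold change of 0.05 with a narrow interval (95% interval -0.11 to 0.22), which bounds a difference between the agents at 1.16-fold upward for PTH. The other members that did not pass were Lrp4 at -0.23, Axin2 at -0.26, Lrp5 at -0.13 and Fzd4 at -0.11. Libraries did not overlap for 2 members that were higher and 6 that were lower after PTH, where 26.3% and 23.7% of all tested genes were separated. At an unadjusted p under 0.05, 7 members were below the threshold, beside 22.3% of tested genes. The calls of Fzd2, Fzd5 and Lrp6 were lost without any 1 of the 4 libraries, and Fzd1 kept its call without either YKL-05-093 library and lost it without PTH replicate 1 (limma adjusted p = 0.144) or PTH replicate 2 (0.132). In 1 fit of all 6 libraries, which brings in the wider spread of the vehicle pair, 0 members passed this comparison.

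The composition of the Frizzled transcripts was described from RPKM, which is a level per length. All 10 Frizzled genes of the mouse were listed, and their summed level was 77.4 and 60.8 RPKM in vehicle, 93.5 and 88.5 RPKM with PTH and 70.8 and 72.5 RPKM with the inhibitor. Without Fzd1 the sum was 49.1 and 39.5 RPKM in vehicle, 31.3 and 29.6 RPKM with PTH and 36.2 and 35.0 RPKM with the inhibitor. The sum of all Frizzled transcripts was therefore highest after PTH, while the sum of the 9 other than Fzd1 was lowest there.

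Fzd1 made up 36.6% and 35.0% of the summed Frizzled RPKM in vehicle, 66.5% and 66.6% with PTH and 48.9% and 51.8% with the inhibitor. Fzd5 went the other way, with 10.5% and 7.83% in vehicle, 1.28% and 1.24% with PTH and 2.90% and 2.74% with the inhibitor. The ratio of Fzd1 to Fzd5 was 3.50 and 4.47 in vehicle, 51.9 and 53.9 with PTH and 16.8 and 18.9 with the inhibitor. The vehicle libraries were close in the share of Fzd1, but not in that of Fzd5 or in the ratio, and the groups did not overlap in any of the 3 measures.

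The share of Fzd8 was 9.13% and 9.91% in vehicle, 2.77% and 2.73% with PTH and 4.56% and 4.05% with the inhibitor. That of Fzd7 was 9.70% and 9.23% in vehicle, 4.33% and 4.60% with PTH and 5.45% and 5.48% with the inhibitor. Fzd2 held 26.6% and 30.4% in vehicle, 18.0% and 19.0% with PTH and 30.6% and 27.9% with the inhibitor, and Fzd4 held between 1.07% and 1.96% in all 6 libraries. A share depends on the gene length used, and with merged GENCODE exon lengths, tried after the data had been seen, Fzd7 held 18.3% and 17.5% in vehicle and Fzd8 4.89% and 5.35%. With these lengths Fzd1 still held 66.7% and 66.5% after PTH. The length behind the deposited RPKM was 8930 bases for Fzd7 and 3345 bases for Fzd8, against 4531 and 5973 bases of merged exons in GENCODE.

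**Figure D3:**
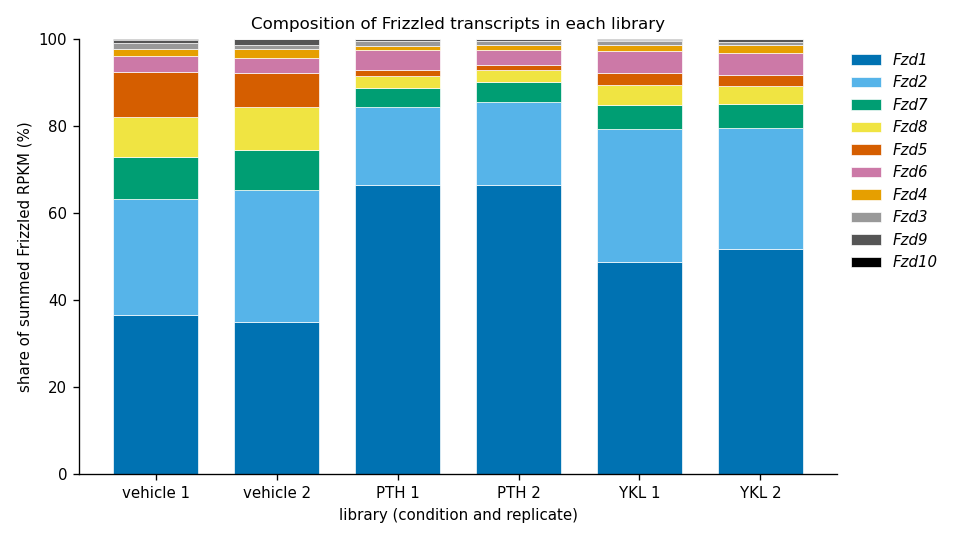
Stacked bars from 0 to 100% give each Frizzled gene's percentage of the summed Frizzled RPKM in each of the 6 libraries. Fzd1 fills 36.6% and 35.0% in vehicle, 66.5% and 66.6% in PTH and 48.9% and 51.8% in YKL-05-093, and the bands of Fzd5, Fzd8 and Fzd7 are thinner in all treated libraries.

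Among the co-receptors, Lrp6 exceeded Lrp5 in every library, by 2.08 and 1.44 times in vehicle, 2.11 and 2.05 times with PTH and 2.51 and 2.01 times with the inhibitor. The ratio of Lrp4 to Lrp6 was 1.50 and 1.58 in vehicle, 0.994 and 0.921 with PTH and 0.905 and 0.995 with the inhibitor. The vehicle pair thus agreed in this ratio, although vehicle replicate 1 was 1.76-fold above replicate 2 for Lrp4 and 1.86-fold for Lrp6. These ratios are given as descriptions, and no test was run on them.

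The other 4 Frizzled genes together held between 4.76% and 6.44% of the summed Frizzled RPKM, and Fzd6 was above Fzd4, Fzd5 and Fzd8 in all 4 treated libraries. None of the 3 that could be tested passed in any comparison, and Fzd10, with no more than 0.0191 RPKM in any library, was not tested. Fzd6, a receptor linked to planar polarity, was at 2.78 and 2.05 RPKM in vehicle, 4.29 and 3.13 RPKM with PTH and 3.57 and 3.67 RPKM with the inhibitor. Its treated libraries were all above vehicle without passing, at log2 fold changes of 0.59 (limma adjusted p = 0.309) and 0.58 (limma adjusted p = 0.414). Fzd3 was at 1.02 and 0.627 RPKM in vehicle, 0.998 and 0.696 RPKM with PTH and 0.526 and 0.491 RPKM with the inhibitor.

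Further genes of the pathway were counted by role, from lists that leave out Wnt ligands and secreted antagonists, and the counts for PTH stand beside 2.19% of all tested genes that passed. Of 9 tested genes for receptors, co-receptors and receptor chaperones outside the Frizzled and LRP families, not all specific to Wnt signalling, 1 passed for PTH. This was Kremen1, a receptor of DKK1 that removes LRP6 from the membrane, at 14.8 and 11.8 RPKM in vehicle and 33.5 and 31.2 RPKM after PTH (log2 fold change 1.28, standard error 0.18, limma adjusted p = 0.0175). Of the 3 tested genes for R-spondin receptors and receptor turnover, Rnf43 passed, a ubiquitin ligase that takes Frizzled proteins from the cell surface. It was at 2.15 and 1.59 RPKM in vehicle and 0.774 and 0.538 RPKM after PTH (log2 fold change -1.38, standard error 0.23, limma adjusted p = 0.0283).

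None of 21 genes for Dishevelled proteins and the destruction complex passed for PTH, and their median log2 fold change was -0.11. Of 15 nuclear partners of β-catenin, Lef1 rose (log2 fold change 1.24, limma adjusted p = 0.00995) and Tcf7 fell (-1.16, limma adjusted p = 0.0135), both DNA-binding partners of β-catenin. Of 17 tested genes known as targets of the pathway besides Axin2, 5 rose and 4 fell, 8 did not pass, beside 1.26% higher and 0.940% lower among all tested genes, and their median was -0.01. Notum, a deacylase that inactivates Wnts, rose most (1.97, limma adjusted p = 0.00396), followed by the CCN-family gene Wisp2 (1.79, limma adjusted p = 0.00289) and the TNF receptor family gene Tnfrsf19 (1.66, limma adjusted p = 0.0054), while Wisp1 fell most (-1.60, limma adjusted p = 0.00806). Of the genes that passed, Lef1, Tcf7 and Rnf43 are counted in 2 lists each, and the lists also share genes that did not pass. Of 8 tested LDL receptor family genes outside Wnt signalling, Lrp8, a reelin receptor, was the 1 that passed (log2 fold change 1.42, limma adjusted p = 0.013).

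After YKL-05-093, 0 genes of these 7 lists passed against vehicle in limma, where 0.666% of all tested genes did. In the direct comparison the treatments differed at 12 of the 17 target genes, 7 higher and 5 lower after PTH, beside 4.85% higher and 5.11% lower among all tested genes, with a median log2 fold change of 0.27 beside 0.01 over all tested genes. Lef1 (1.51), Notum (1.50), Rnf43 (-1.65) and Fgf18 (-1.98) differed most. The value of Fgf18 rests on under 1 RPKM in every library and on a PTH pair at 0.392 and 0.0444 RPKM. It was -2.86 without PTH replicate 1, -1.09 without PTH replicate 2 and -0.69 with a pseudocount of 1, and its call held in 2 of 13 alternatives. Kremen1 was higher after PTH (0.72, limma adjusted p = 3e-06) and Ror2, a receptor for Wnt signals outside β-catenin, was lower (-0.32, limma adjusted p = 0.0479), a call that held in 3 of 14 alternatives. Gsk3b, a kinase of the destruction complex, was the 1 of its 21 genes that differed (-0.25, limma adjusted p = 0.0218), where 9.97% of all tested genes did, and its call held in 6 of 14 alternatives. Of the LRP genes outside Wnt signalling, Lrp8 (1.19), Lrp1 (0.64) and Lrp12 (0.35) were higher after PTH.

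**Figure D4:**
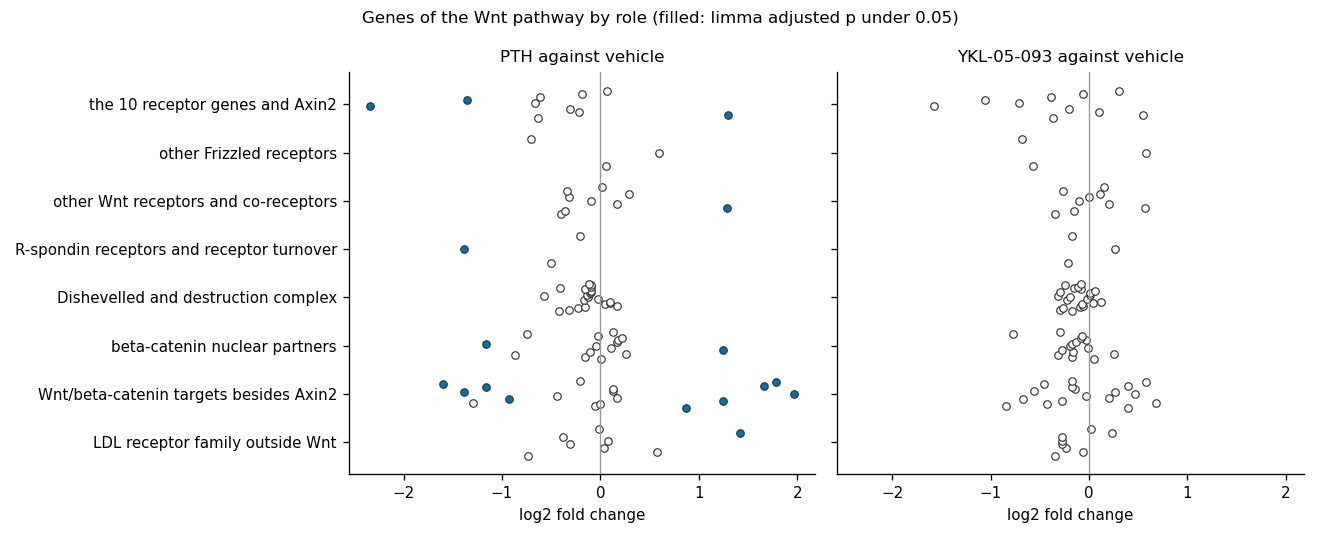
Log2 fold change (x axis) of every tested gene, 1 point each, in rows by role, for PTH and for YKL-05-093 against vehicle, filled where the limma adjusted p is under 0.05. The 3 filled members in the top row of the PTH panel lie on both sides of 0, as do the 9 filled target genes, and no point is filled for YKL-05-093.

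For each member that passed in a comparison, the tested genes with the most similar profile were found by the root mean square difference of log2(RPKM + 0.1), centred on its mean over the 6 libraries. Closest to Fzd1 were Stat3, a transcription factor of cytokine signalling (0.0248), Kremen1 (0.0303) and Fam134b (0.072). Kremen1 is a gene of the same pathway, and the search ran over all 14264 genes. Closest to Fzd8 were Ndnf (0.0635), Vgll3 (0.0691) and Bmp2, a bone morphogenetic protein (0.0905). The profile of Fzd5 had looser matches, with Gpr176 at 0.155, Chst15 at 0.205 and Tmem229b at 0.226. Fzd2 was nearest to Ccdc34 (0.037), Ttc7b (0.0422) and Mdm1 (0.0425), and Lrp6 to Svep1 (0.0512), Synm (0.0729) and BC018507 (0.0816). These matches describe 6 libraries in 3 conditions, and nothing follows from them about shared control.

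**Figure D5:**
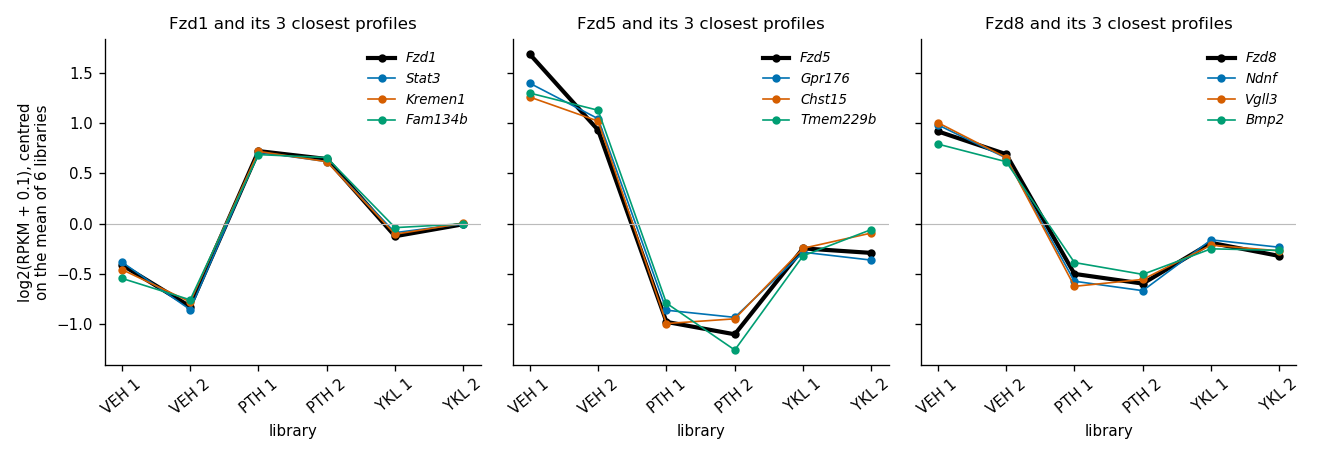
Log2(RPKM + 0.1), centred on the mean of the 6 libraries (y axis), for Fzd1, Fzd5 and Fzd8 (black) and the 3 tested genes closest to each, across the libraries (VEH is vehicle, YKL is YKL-05-093). The lines of Stat3 and Kremen1 run within a root mean square of 0.0248 and 0.0303 of Fzd1, and the lines around Fzd5 are farther apart, at 0.155 or more.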

How the data were processed

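Per the labels and the study's methods, the authors used STAR for alignment (mm10, GRCm38) and HTSeq with Ensembl genes for counting, and deposited RPKM values on a linear scale, without scaling between libraries. CASAVA 1.7 is named in the submitters' processing notes. The gene lengths used and the strand setting are not stated. The 6 single-library files hold the values of the series table.

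Reads behind each value were worked back from the RPKM steps. All 26214 genes above 0 came out as whole reads, within 0.02 bases of a whole gene length, and in 36.0% the length equals the merged exons of GENCODE M21, the source of positions. limma 3.58.1 (R 4.3.3) was fitted to log2(RPKM + 0.1) per comparison with its 4 libraries, with a prior variance that follows the mean of log2(recovered reads + 0.5) and Benjamini-Hochberg adjustment over all tested genes. A gene passed at an adjusted p under 0.05, with no fold limit. Fold changes are on the scale with the pseudocount and understate those of low genes. With 2 libraries against 2, an exact permutation test cannot go below p = 0.333, so none is given. The scripts were tested on simulated data.

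Named were all members, up to 4 genes per list that passed a comparison (by absolute log2 fold change), the 2 highest in vehicle where none passed, and the 3 closest profiles of each member that passed. A gene that this rule names is not reported here. The members and lists were chosen with earlier results of these data known. A check of replicate numbers saw no pairing of libraries, but it cannot show whether libraries with the same number were handled together. Promoters and their positions are from RefSeq (GRCm38.p6).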

Additional observations from a re-analysis of the deposited data

How the results depend on the processing

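For the 10 members in 3 comparisons, settings other than leaving out a library gave 300 log2 fold changes with their tests. None changed sign, 271 kept their side of the threshold, 22 lost a call and 7 gained one. For PTH, 3 members passed, 0 without the filter on low values or without a trend of the spread, and from 0 to 9 when 1 library was left out. For YKL-05-093, 0 passed, but 2 in 1 fit of all 6 libraries, 1 with voom, 2 with the replicate block, and from 0 to 4 when 1 library was left out. Between PTH and YKL-05-093, 4 passed, 3 with a pseudocount of 0.01 or of 1, where Lrp6 was lost, and 5 with median-ratio scaling. There were 2 without the filter, 1 with the spread trended on the mean value, and 0 without a trend or in 1 fit of all libraries. Without the filter, 25085 genes were tested for PTH, beside 14261 with it. Why the counts moved between settings was not tested.

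No pairing by replicate number was seen in the data: the differences between replicates 1 and 2 correlated at -0.03, -0.05 and -0.05 between groups. This cannot show whether libraries with the same number were handled together. With the replicate block, 3 members passed for PTH, 2 for YKL-05-093 (Fzd5 and Fzd8) and 5 between the treatments (Lrp4 added), and genes passing in the whole table went from 313 to 758, from 95 to 301 and from 1421 to 1750.

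Of 14 alternatives, the 9 list genes named for PTH passed in 8 to 11. Between the treatments, Fgf18 passed in 2 of 13, Ror2 in 3 of 14, Gsk3b and Lrp12 in 6, and the other list genes named in 8 to 12. Over the whole table, 0 to 567 genes passed for PTH and 0 to 285 for YKL-05-093 under settings other than the block and leaving out a library. Leaving out a library turned the sign of values near 0 that had not passed. For PTH these were Lrp6 (from -0.37 to 0.52) and Fzd3 (from -0.25 to 0.36). For YKL-05-093 they were Lrp4 (from -0.79 to 0.0206), Lrp5 (from -0.24 to 0.12) and Lrp6 (from -0.13 to 0.75). Between the treatments they were Fzd4 (from -0.24 to 0.0221) and Fzd6 (from -0.21 to 0.24). The Lrp6 value for PTH, 0.07 in the main fit, was 0.52 without vehicle replicate 1 and turned to -0.37 without vehicle replicate 2. A fit that leaves 1 library in a group assumes that it varies like the other pair. Depth limits Fzd4 most, with 69 to 123 reads per library.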
